A study of Rattus norvegicus with 22 samples.

Results

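Expression of 10 genes of acinar cell regulation and fluid secretion was compared between oral squamous cell carcinoma (OSCC) and adjacent normal tongue of the rat, over 11 matched tissue pairs. The genes are the acinar regulators Bhlha15, Creb3l1, Elf5 and Sox9 and the fluid secretion genes Chrm3, Slc12a2, Kcnn4, Ano1, Cftr and Aqp5. They were chosen by name, with earlier results of these data known. Each is represented by the brightest of its probes over the 22 arrays, with any other probe as a check. All 10 were on the array, among 19262 gene symbols, and Ano1 was found under the older symbol Tmem16a through its RefSeq accession.

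The tissues came from male F344 rats, approximately 33 weeks old, that received 4-nitroquinoline-1-oxide (4-NQO, an oral carcinogen) for 10 weeks in water at a dose of 20 ppm. Lesions of the tongue and adjacent phenotypically normal tissue of the same animals were taken 23 to 26 weeks after the first exposure. Each lesion was bisected, and the histology that established carcinoma was read on the piece that was not used for RNA. The normal pieces are therefore tissue of treated rats, although the sample titles read "Untreated" on all 22 arrays and the treatment label of the normal pieces reads none. The pieces were bulk tissue, in which fewer cells of a type and less RNA per cell cannot be told apart.

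The salivary acinar cell releases fluid after acetylcholine binds a muscarinic receptor and calcium rises in the cell. Calcium opens a basolateral potassium channel and an apical chloride channel, a sodium, potassium and chloride cotransporter refills the cell with chloride, and water follows through an apical water channel. The posterior rat tongue holds minor glands of this kind, the serous von Ebner glands and the mucous Weber glands, which lie between muscle bundles beneath the squamous epithelium. A level is given below as the log2 signal of a probe minus the 75th percentile of its array, so that 0 is the brightness of the probe at that percentile. A difference is the log2 level in OSCC minus that in normal tissue. A probe that the scanner software did not mark as well above background on an array is described as near background there.

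On the 22 arrays the 75th percentile signal ranged from 236.8 to 654.9 in normal tissue and from 338.7 to 1414.0 in OSCC, and 48.4% to 56.1% and 52.3% to 65.5% of the probes were well above background. Squamous and skeletal muscle markers were present in both tissues: Krt5, Krt14 and Krt13 and the muscle genes Ckm and Acta1 were well above background on all arrays. All 11 normal arrays and the OSCC arrays of animals 4 and 9 were scanned on a first day and the other 9 OSCC arrays on a second day. No slide held both tissues, so that slide and tissue cannot be told apart. Across all probes, the correlation of the differences of a pair with the mean of the other 10 pairs was 0.21 for animal 22 and 0.26 for animal 24, which stood furthest apart, 0.47 for animals 17 and 21, and 0.76 to 0.84 for the other 7.

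Of the 10 genes, 5 were higher in OSCC, namely Bhlha15, Creb3l1, Elf5, Kcnn4 and Aqp5, and 0 were lower. A gene was called at an adjusted p below 0.05 in limma (animal and tissue as terms, Benjamini-Hochberg adjustment over 30367 probes) and a change of at least 2-fold. By the same rule, 7.48% of all 19262 genes were called higher and 7.25% lower. The median difference over the 10 genes was 1.85, compared with -0.24 over all probes. Because the genes were chosen with earlier results of these data known, these shares and medians are a description and no independent support. The paper lists Bhlha15 among its most up-regulated genes from the same arrays. For 0 of the 10 genes did all 11 OSCC pieces lie above all 11 normal pieces, a separation that 0.668% of all probes showed.

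Among the acinar regulators, Bhlha15 encodes MIST1, a basic helix-loop-helix factor of secretory cells that is also made by plasma cells. Its probe lies at chr12:10747909-10747968 of rat assembly rn4, the build of the array annotation, which gives positions without exons. In normal tissue its level ranged from -6.23 to -4.89 with a median of -5.62, and 0 normal arrays read well above background. In OSCC it ranged from -6.01 to 3.20 with a median of -1.75, and it was well above background on 10 arrays. The OSCC piece of animal 22 lay within the normal range, and the other 10 OSCC pieces lay above it. The mean level was -5.63 in normal tissue and -0.92 in OSCC, at least 7.87-fold higher (adjusted p = 0.00073, limma). After normexp background correction the difference was 1.58, under that limit, and the call was lost (adjusted p = 0.059). In the fit reported the difference was positive in all 11 pairs (0.22 to 8.68), which 4.61% of all probes showed. In the pair of animal 22 both tissues read near background, so that no direction is taken from its 0.22.

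Creb3l1, a membrane-bound transcription factor of the secretory pathway, was detected on every array (probe at chr3:76361172-76361230). Its level was -1.04 to -0.09 in normal tissue with a median of -0.68, and -1.13 to 4.75 in OSCC with a median of 2.0. In OSCC 10 pieces lay above all normal pieces, and that of animal 22 lay below them. The difference was 2.47 (SE 0.39, adjusted p = 0.00073, limma), 5.55-fold, and it was positive in 10 of 11 pairs.

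Elf5, an ETS factor of glandular epithelium, had its brightest probe at chr3:88691756-88691815. Its level was -4.39 to -1.22 in normal tissue (median -2.44) and -2.64 to 1.59 in OSCC (median -0.51), and 8 OSCC pieces lay above all normal pieces. The difference was 2.08 (SE 0.33, adjusted p = 0.00084, limma), 4.23-fold, and positive in 10 pairs. The ranges overlapped, and Elf5 varied among normal pieces with an SD of 1.01. The other Elf5 probe exceeded background clearly on 3 OSCC arrays and 0 normal arrays, and its difference of 0.80 (adjusted p = 0.042, limma) was under 2-fold.

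Sox9, a factor of glandular progenitor and ductal cells, depended on the probe. The sequences of both probes follow in lower case, since the call turns on them; the brightest is given before the other.
Sox9 brightest probe, chr10:102388891-102388950: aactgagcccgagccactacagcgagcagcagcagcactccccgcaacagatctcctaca
Sox9 other probe, chr10:102393822-102393881: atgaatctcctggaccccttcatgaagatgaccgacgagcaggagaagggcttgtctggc
With the brightest probe the level was -2.58 to -1.42 in normal tissue (median -1.93) and -2.80 to 0.45 in OSCC (median -1.42). Of the OSCC pieces, 5 lay above all normal pieces and 2 below them. The difference of 0.72 (SE 0.26, adjusted p = 0.042, limma) was under 2-fold, so Sox9 was not called. The other probe was well above background on all 11 OSCC arrays and on 0 normal arrays, with levels of -5.58 to -3.76 in normal tissue and -4.11 to -0.41 in OSCC. It was at least 2.94-fold higher (means -4.51 and -2.34, adjusted p = 0.00047, limma), with a positive difference in all 11 pairs. On both probes the OSCC pieces of animals 17, 16 and 9 were the highest.

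**Figure D1:**
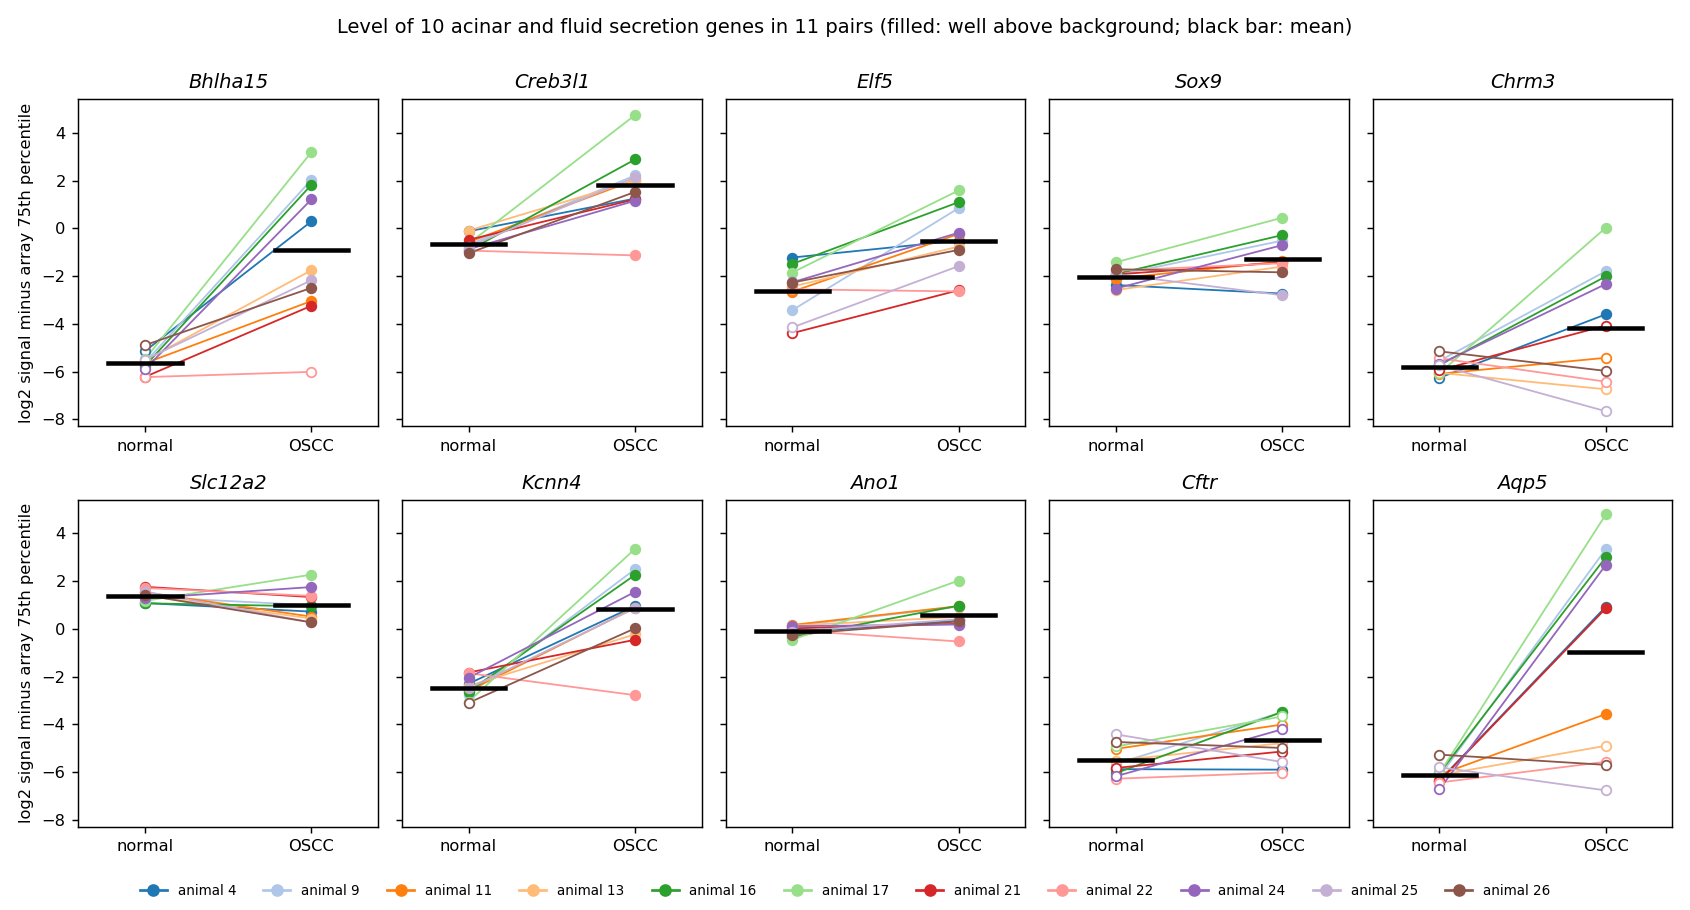
Level of each of the 10 genes (log2 signal minus the array's 75th percentile, brightest probe) in normal tissue and OSCC, with a line for each of the 11 animals, filled points where the probe was well above background and a black bar at the mean. The piece of animal 17 was the highest for 9 of the 10 genes.

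Among the fluid secretion genes, Chrm3 encodes the M3 muscarinic receptor that starts the response. Its probe (chr17:71218386-71218445) was near background on all normal arrays, where it read -6.26 to -5.15 (median -5.74). In OSCC it read -7.66 to 0.03 (median -4.07), and it was well above background in animals 4, 9, 16, 17 and 24. The difference was 2.67 to 6.10 in these 5 pairs, and in the other 6 both tissues read near background, so that no direction is taken from them. The mean difference over all pairs was 1.61 (SE 0.69, adjusted p = 0.072, limma). It passed the test without the pair of animal 22 (1.87, adjusted p = 0.047) or of animal 25 (1.96, adjusted p = 0.045), both near background in the 2 tissues.

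Slc12a2 encodes NKCC1, the cotransporter that loads the cell with chloride, and its probe (chr18:53741021-53741080) was well above background on all arrays. Its level was 1.07 to 1.76 in normal tissue (median 1.4) and 0.27 to 2.27 in OSCC (median 0.94). Of the OSCC pieces, 7 lay below all normal pieces and 1, that of animal 17, above them. The difference was -0.40 (SE 0.21, adjusted p = 0.12, limma), negative in 9 pairs and positive in those of animals 17 and 24. The other Slc12a2 probe, also detected on all arrays, gave 0.36 (adjusted p = 0.17), so the sign of this gene's difference was not settled.

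Kcnn4 encodes the calcium-activated potassium channel of intermediate conductance, which is also made by lymphocytes and macrophages. The brightest probe (chr1:79625914-79627646, interrupted in the genome) read -3.10 to -1.83 in normal tissue (median -2.50) and -2.78 to 3.35 in OSCC (median 0.89). Again 10 OSCC pieces lay above all normal pieces, and that of animal 22 fell within the normal range. The difference was 3.27 (SE 0.54, adjusted p = 0.00091, limma), 9.66-fold, and positive in 10 pairs. The other probe, at chr1:79627673-79627732, gave 2.90 (SE 0.50, adjusted p = 0.0011, limma), so that both Kcnn4 probes gave the same call. Of the other called genes, Elf5 had probes that differed in call. Bhlha15, Creb3l1 and Aqp5 had 1 probe each, so that no other probe could check them.

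Ano1 encodes the calcium-activated chloride channel of the apical membrane. Its brightest probe (chr1:205018645-205018704) read -0.46 to 0.16 in normal tissue (median -0.06) and -0.53 to 2.02 in OSCC (median 0.40). In OSCC 10 pieces lay above all normal pieces and that of animal 22 below them, although most lay within 1 log2 unit of the normal range. The difference was 0.65 (SE 0.22, adjusted p = 0.032, limma), under 2-fold, and the other probe gave 0.91 (adjusted p = 0.0034), also under 2-fold.

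Cftr, the cyclic AMP-regulated chloride channel, was near the limit of detection. Its brightest probe (chr4:44041769-44041828) was well above background in the OSCC pieces of animals 9 and 16 and in 0 normal pieces. The level was -6.28 to -4.42 in normal tissue (median -5.66) and -6.02 to -3.48 in OSCC (median -4.79), with overlapping ranges. The difference was 0.84 (SE 0.31, adjusted p = 0.045, limma), under 2-fold, and 1.04 without the pair of animal 25 (adjusted p = 0.016). The other probe was near background throughout and read -0.33 (adjusted p = 0.30), and the brightest probe read -0.22 after normexp background correction, so that no direction is given for Cftr.

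Aqp5 is the apical water channel of serous acini (probe at chr7:138340966-138341024). In normal tissue it was well above background on 0 arrays and read -6.73 to -5.27 (median -6.13). In OSCC the levels were 4.79, 3.34, 3.0 and 2.68 in animals 17, 9, 16 and 24, and 0.93 and 0.86 in animals 4 and 21. They were -3.57, -4.90, -5.57, -5.70 and -6.77 in animals 11, 13, 22, 26 and 25. Thus 8 OSCC pieces lay above all normal pieces, those of animals 22 and 26 lay within the normal range and that of animal 25 lay below it, and Aqp5 was well above background in 7. The mean was -6.14 in normal tissue and -0.99 in OSCC, at least 7.49-fold higher (adjusted p = 0.0063, limma), with 9 pairs positive. In the pairs of animals 13, 22, 25 and 26 both tissues were near background. After normexp background correction the difference was 2.61, under the limit of 7.49-fold. The call was kept by a narrow margin (adjusted p = 0.050 after rounding, limma).

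**Figure D2:**
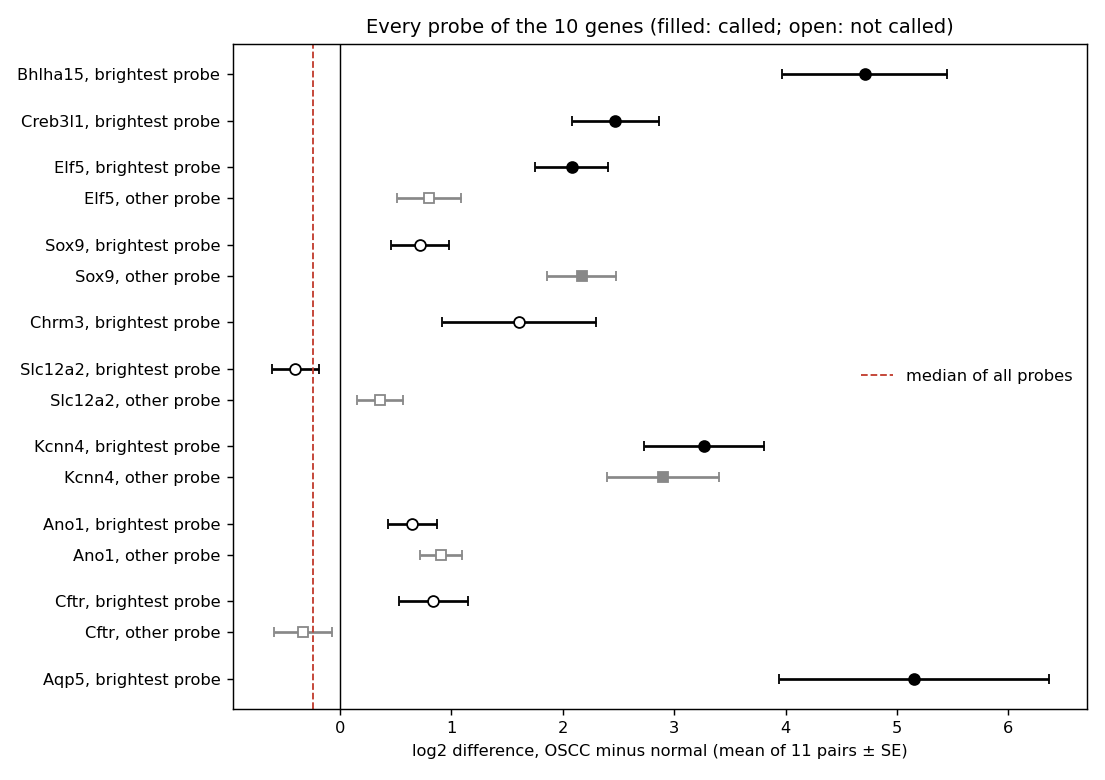
Difference (log2, OSCC minus normal, mean of 11 pairs with its SE) of every probe of the 10 genes, filled where called, with the median of all probes as a dashed line. The pair of probes of Kcnn4 was called alike, at 3.27 and 2.90, while those of Sox9 (0.72 and 2.17) and Elf5 (2.08 and 0.80) differed in call and those of Slc12a2 and Cftr in sign.

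The OSCC pieces differed widely from each other. The piece of animal 17 ranked first of 11 for 9 of the 10 genes, and Cftr was highest in animal 16. Animals 9 and 16 ranked 4 or better for 9 genes each and animal 24 for 7. The piece of animal 22 was the lowest for 6 genes and that of animal 25 for the remaining 4. Within pairs, all 10 genes were higher in OSCC in animals 17 and 24, compared with 4 in animal 22 and 5 in animals 25 and 26. The median difference over the 10 genes ranged from -0.18 in animal 25 and -0.14 in animal 22 to 4.41 in animal 17. These ranks and signs include readings near background, mainly of Chrm3, Cftr and Aqp5.

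The serous gland markers also varied widely among the OSCC pieces. This list of 14 secretory products, led by Vegp1 and Vegp2 (lipocalins of the von Ebner gland), had 11 members called higher and 0 lower, with a median difference of 7.04. Their summed linear level was 0.767 to 3.76 times the 75th percentile in normal pieces and 4.61 to 6730 times in OSCC pieces, and the markers Pip and Klk1 stayed near background on all 22 arrays. The mean log2 level of the list in OSCC was 2.85 to 4.93 in animals 4, 9, 16, 17 and 24 and -3.44 to 0.21 in animals 11, 13, 21, 22, 25 and 26, with a gap of 31.6% of the range between them. The part of gland tissue in the differences of the 10 genes was not tested.

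In animals 25 and 26, whose OSCC pieces had the lowest serous scores (-3.26 and -3.44), the 10 genes did not move alike. Bhlha15 differed by 3.33 and 2.40, Creb3l1 by 2.90 and 2.57, Elf5 by 2.57 and 1.37, and Kcnn4 by 3.37 and 3.12. Bhlha15 was well above background in both OSCC pieces. In the same pairs Ano1 differed by 0.53 and 0.55 and Slc12a2 by -1.29 and -1.14, and the probes of Sox9 disagreed (-0.88 and -0.13 with the brightest, 0.08 and 1.20 with the other). Aqp5 and Chrm3 were near background in both tissues of these animals. Thus Bhlha15, Creb3l1 and Kcnn4 were higher in OSCC pieces in which Aqp5 did not clearly exceed background. Elf5 was higher there with its brightest probe only, and its other probe, near background in both tissues, read -0.89 and -0.15. In animal 25 the brightest Elf5 probe was near background in normal tissue (-4.15), and its OSCC level of -1.58 lay within the normal range. In animal 22, also low in serous markers (-2.72), Bhlha15 differed by 0.22 and Kcnn4 by -0.92, and 0 of the 5 called genes reached 2-fold.

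**Figure D3:**
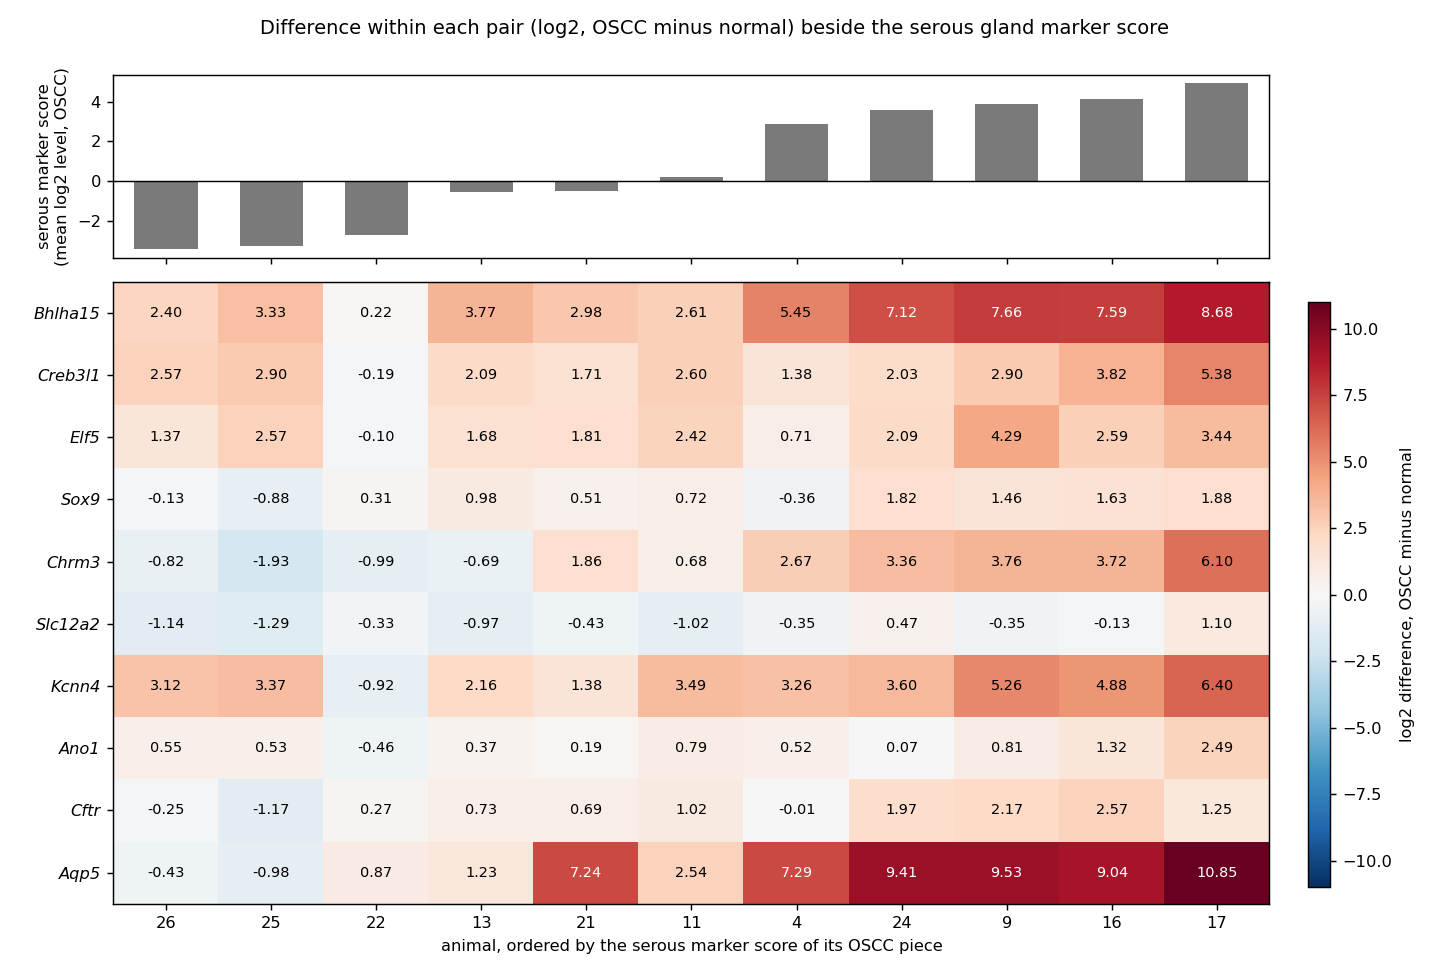
Upper panel: mean log2 level of the 14 serous gland markers in each OSCC piece. Lower panel: difference of each gene within each pair (log2, OSCC minus normal), with the animals in the same order. Aqp5 reached 10.85 in animal 17 and read near background in both tissues of animals 13, 22, 25 and 26, whereas Creb3l1 and Kcnn4 were above 1 in every pair other than that of animal 22.

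Because the pieces fell on either side of a gap in the serous score, its relation to each gene was computed within the 6 pieces below the gap. For Sox9 (brightest probe) Spearman's rho was 0.89 (exact permutation p = 0.033, adjusted over 10 genes p = 0.17) and Pearson's r was 0.64 (exact permutation p = 0.11, adjusted p = 0.42). Without the animals farthest from the median, 11 and 26, its r was 0.67 over 4 pieces. Aqp5 also had a rho of 0.89, but 4 of the 6 pieces read near background for it, and no order is taken from them. For Bhlha15, Creb3l1 and Kcnn4 rho was -0.26, 0.03 and 0.09. No relation in levels passed the adjustment over the 10 genes, and 6 pieces limit its precision.

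Markers of other cell types moved in the same comparison, in which 7.48% of all genes were called higher and 7.25% lower. Of 6 mucous gland markers 4 were called higher, and their summed linear level was 0.268 to 0.436 in normal pieces and 0.544 to 756 in OSCC. Of 6 markers of ducts and simple epithelium 3 were called higher (3.76 to 7.71 and 3.99 to 50.1). Of 6 plasma cell markers 3 were called higher, namely Mzb1, Jchain and Cd79b. Their summed level (14.9 to 22.2 and 6.28 to 42.4) is mostly that of Sdc1, which squamous epithelium also makes and which was not called (means 4.20 and 4.40). The plasma cell score in OSCC was -0.24 in animal 13, -0.25 in animal 9, -0.61 in animal 25 and -0.70 in animal 26. It was -1.08 in animal 11, -2.0 in animal 17, -2.22 in animal 16 and -2.39 in animal 24. In animals 21, 4 and 22 it was -2.75, -3.31 and -3.74. All 8 macrophage and neutrophil markers (2.59 to 7.63 and 6.74 to 413) and 4 of 6 T cell markers (0.707 to 3.02 and 1.03 to 5.98) were called higher. The macrophage and neutrophil score in OSCC was -1.0 to 0.16 in animals 17, 21, 22 and 24 and 2.15 to 2.93 in the others. The T cell score in OSCC was -2.82 to -2.52 in animals 17, 22 and 24 and -1.45 to -0.12 in the others, highest in animal 25. Of 8 fibroblast markers 6 were called higher (54.3 to 95.6 and 51.3 to 477). The fibroblast score in OSCC was 4.83 to 5.16 in animals 11, 13, 25 and 26. It was 3.68 to 4.18 in animals 4, 9 and 16, 2.61 to 2.87 in animals 21, 22 and 24, and 1.84 in animal 17. Of 8 skeletal muscle markers 5 were called lower and 1 higher (1110 to 2380 and 80.2 to 2600). Their mean difference was -3.96 to -3.02 in animals 11, 13, 25 and 26 and -2.07 to -0.90 in animals 4, 9, 16 and 17. It was 1.11 to 1.34 in animals 21, 22 and 24. Of 9 squamous epithelium markers 1 was called higher and 1 lower. The squamous score in OSCC was 1.86 in animal 24, whose normal piece had 4.14, and 4.29 to 4.91 in the other animals. The part of these cell types in the levels of Bhlha15, Creb3l1 and Kcnn4 was not tested.

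The scan day touched all 5 calls. With scan day as a further term the tissue difference rests on the pairs of animals 4 and 9, whose arrays were all scanned on the first day, and 0 of the 10 genes were called (0.00988% of all probes were, 3 of 30367). In these pairs Bhlha15 differed by 5.45 and 7.66, Aqp5 by 7.29 and 9.53, and Kcnn4 by 3.26 and 5.26. Creb3l1 differed by 1.38 and 2.90 and Elf5 by 0.71 and 4.29. All 5 genes were higher in OSCC in both of these pairs, by 2-fold or more except for Elf5 in animal 4. The normal and OSCC arrays of these pairs lay on different slides, and no verdict on scan day is taken from them. At an unadjusted p below 0.05 and 2-fold, an alternative chosen after seeing the data, the same fit called 5 genes higher and 0 lower, against 6.33% and 25.2% of all probes.

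The background correction reduced the differences. With normexp correction of the mean signals 2.26% of all probes were called higher, and 4 of the 10 genes. Elf5 was then 1.01 higher (adjusted p = 0.023, limma), Kcnn4 2.17 (adjusted p = 0.0033) and Creb3l1 2.16 (adjusted p = 0.0018), beside the values of Bhlha15 and Aqp5 given above.

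**Figure D4:**
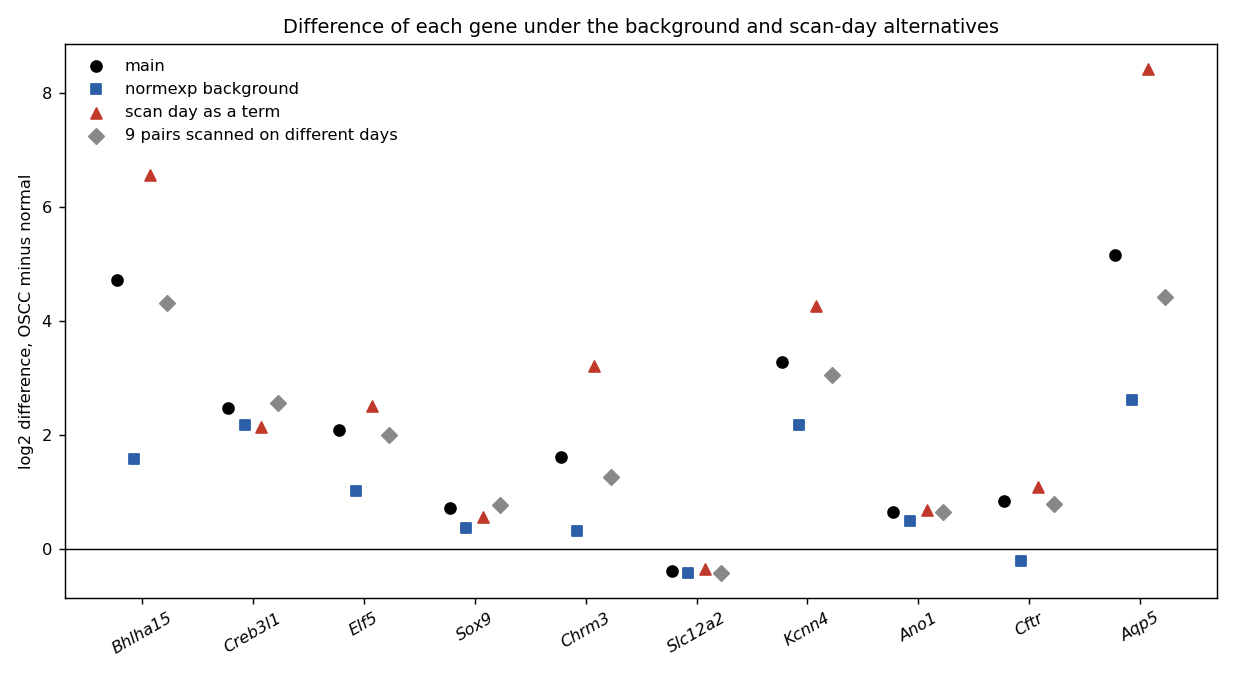
Difference of each gene (log2, OSCC minus normal) in the fit reported, after normexp background correction, with scan day as a term and in the 9 pairs scanned on different days. Bhlha15 ran from 1.58 to 6.55 and Aqp5 from 2.61 to 8.41, whereas Creb3l1 stayed between 2.14 and 2.55.

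Other genes of the same pathways were counted from lists. Of 76 such genes of fluid secretion, gland transcription and exocytosis, 72 were on the array, of which 13 were called higher, 4 lower and 55 not, with a median difference of 0.19. Over all genes 7.48% were called higher and 7.25% lower in the same fit. After normexp background correction 3 of the 72 were higher and 3 lower, against 2.26% and 3.34% of all probes. Among 18 other gland transcription factors 4 were higher and 0 lower. They were the ETS factors Ehf (2.93, adjusted p = 0.00015, limma) and Elf3 (1.37, adjusted p = 0.0035), Spdef (at least 2.19-fold, adjusted p = 0.026) and Foxa2 (at least 1.03-fold, adjusted p = 0.039). Xbp1, the unfolded protein response factor, differed by 0.84 and was not called.

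Among 15 receptors and calcium signal genes, Plcb1, a phospholipase C that releases the calcium signal, was higher by 1.29 (adjusted p = 0.0053, limma). Stim1, the calcium sensor of the endoplasmic reticulum, was lower by a difference of -1.15 (adjusted p = 0.0015), and the other 13 were not called. Thus 1 was higher and 1 lower, near the shares of 7.48% and 7.25% over all genes. Among 22 genes of ion and water transport 4 were higher and 2 lower, beside the same shares over all genes. The carbonic anhydrases Car2 (3.77, adjusted p = 0.00058, limma) and Car12 (1.32, adjusted p = 0.0037), and the bicarbonate transporter Slc4a7 (1.21, adjusted p = 0.011) were higher. The anion exchanger Slc26a4 was also called (adjusted p = 0.018, limma), although it was near background in all normal pieces. No size is given, since its mean in OSCC did not exceed the level detectable on the normal arrays. Car2 was higher in all 11 pairs, which 4.61% of all probes showed. The sodium pump subunit Atp1b1 (-1.79, adjusted p = 0.0017) and the epithelial sodium channel subunit Scnn1a (-1.12, adjusted p = 0.0037) were lower, each in all 11 pairs.

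Among 17 genes of exocytosis and acinar maturation 4 were higher and 1 lower, against 7.48% and 7.25% of all genes. Rab26 (1.98, adjusted p = 0.0084, limma) and Rab27b (1.10, adjusted p = 0.0016) are small GTPases of secretory granules, Stx3 (1.14, adjusted p = 0.0011) is an apical SNARE protein, and Atp2c2 (1.95, adjusted p = 0.0010) is a calcium and manganese pump of the Golgi. Vamp2, a vesicle SNARE protein, was lower by -1.37 (adjusted p = 0.00049). With scan day as a term, 0 of these 72 genes were called.

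**Figure D5:**
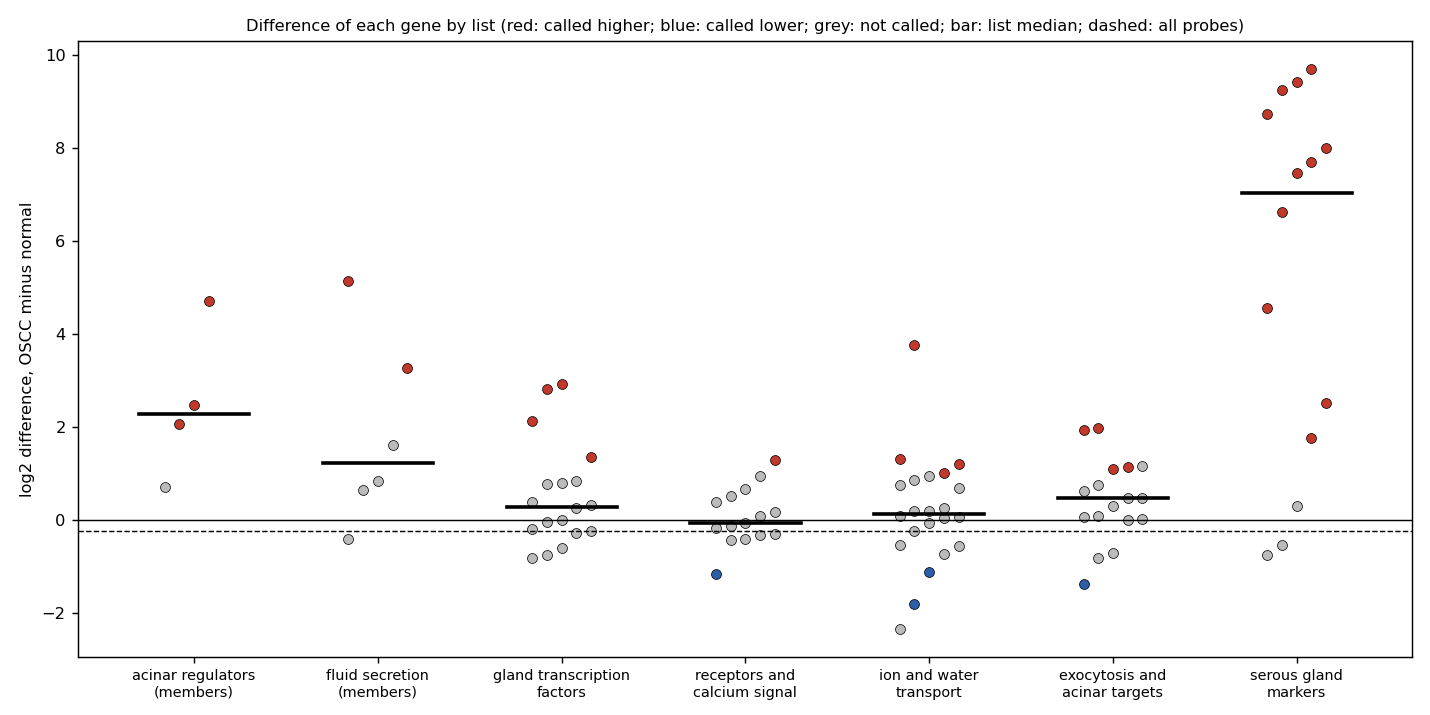
Difference (log2, OSCC minus normal) of each gene by list, colored by call, with the list median as a bar and the median of all probes as a dashed line. The medians of the other 4 lists lay between -0.06 and 0.47, those of the acinar regulators and fluid secretion genes at 2.28 and 1.23, and that of the serous markers at 7.04.

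The genes whose order over the 11 OSCC pieces was most like that of each gene were taken from 12296 genes by Spearman's rho, as a description over pieces that share the gap in serous score. For Bhlha15 they were Derl3, Kctd14 and Fkbp11 (0.99 each), for Creb3l1 Arf4 and Rdh11 (0.99) and Ostc (0.98), and for Elf5 Tmem139 and Npdc1 (0.96) and Cxcl17 (0.95). For Sox9 they were Tmed2 (0.95), Vil1 (0.93) and Pla2g2e (0.92). For Chrm3 they were Pigr (1.0), the polymeric immunoglobulin receptor of secretory epithelium, Myo5c and Cldn3 (0.99), and for Aqp5 RGD1310209, Rhpn2 (1.0) and Ccl28 (0.99). For Kcnn4 they were Slc39a8, LOC685253 (0.99) and Tmem139 (0.98), and for Ano1 Kdelr1 (1.0), Txndc4 (0.99) and Slc39a7 (0.98). For Slc12a2 they were Fhit, Cyhr1 (0.99) and Cpd (0.98), and for Cftr Sec11c (0.95), RGD1310262 (0.91) and Tmed2 (0.90). Among the 10 genes, rho was highest for Chrm3 and Aqp5 (0.96) and lowest for Creb3l1 and Slc12a2 (-0.14). Chrm3, Aqp5 and Cftr were well above background on only 5, 7 and 2 OSCC arrays. Their orders, and each rho that involves them, therefore rest in part on readings near background.

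The promoters of Bhlha15 and Aqp5, the called genes that were near background in normal tissue, are shown because Bhlha15 encodes a factor of the family that binds E-boxes (CANNTG, here in capitals, on either strand). The sequences run from 250 bases before to 50 after the start of the gene and are those of RefSeq on assembly GRCr8, a later build than that of the array. Promoters were matched for 7 of the 10 genes, without Elf5, Sox9 and Kcnn4.
Bhlha15 promoter, chr12:15538250-15538549, minus strand: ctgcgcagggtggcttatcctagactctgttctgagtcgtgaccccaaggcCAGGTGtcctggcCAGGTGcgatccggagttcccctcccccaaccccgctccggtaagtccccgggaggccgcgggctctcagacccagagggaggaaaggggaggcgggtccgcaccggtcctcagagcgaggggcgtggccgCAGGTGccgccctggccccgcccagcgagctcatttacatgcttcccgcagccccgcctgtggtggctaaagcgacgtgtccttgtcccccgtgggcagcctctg
Aqp5 promoter, chr7:132601278-132601577, plus strand: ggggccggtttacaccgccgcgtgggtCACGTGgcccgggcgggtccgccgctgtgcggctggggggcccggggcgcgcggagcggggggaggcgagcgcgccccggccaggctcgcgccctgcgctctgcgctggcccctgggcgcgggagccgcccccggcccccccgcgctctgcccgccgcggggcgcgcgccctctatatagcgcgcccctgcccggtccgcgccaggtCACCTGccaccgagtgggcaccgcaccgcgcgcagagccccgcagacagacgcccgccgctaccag
The Bhlha15 window held 3 E-boxes and the Aqp5 window 2. All 7 windows held at least 1, compared with 72.1% of 33469 promoters of the same length. The E-box forms CAGCTG and CACGTG were in 2 and 1 of the 7 windows (15.1% and 6.42% of all promoters), the latter in Aqp5, and CATATG was in 0 (4.11%). The cyclic AMP response element in the form TGACGTCA and the TATA box in the form TATAAA were in 0 windows (1.83% and 14.2%). Other forms of these elements were not counted. These are matches of letters in a window and do not show binding.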

How the data were processed

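Total RNA of 11 pairs of OSCC and adjacent normal tongue was hybridized to 22 one-color Agilent arrays of 42877 non-control spots for 30367 probes. The authors read the spots with Agilent Feature Extraction (version not given in the sources used here) and analysed them in GeneSpring GX, so that the deposited intensity values are linear processed signals after background subtraction and detrending, with no scaling across arrays. A second table deposited by the authors holds a linear ratio, the signal relative to its own array. Of its values at or above 0.5, 99.97% matched the processed signal over the array's 75th percentile within 2%. Array annotation gives positions on rn4.

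Control spots and 9196 outlier spots (0.97%) were left out, log2 signals were averaged over the spots of a probe, and the 75th percentile of each array was subtracted. No probe was filtered. A probe was well above background where at least 50% of its spots carried that mark, and no spot of the 10 genes was saturated. Against tissue where a probe was never well above background, the fold is a lower limit, computed from the lowest signal of any probe well above background on each such array, or the probe's own if higher. Precision is limited by the number of arrays.

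Differences were tested with limma 3.58.1 (R 4.3.3), fitting animal and tissue, and p was adjusted by Benjamini-Hochberg across every probe. The paper's methods name a t-test and a 2-fold limit. The pairing comes from each animal giving both tissues, and the deviations of the paired arrays from their tissue means correlated by -0.21 to 0.24 (median -0.02). Relations within 6 pieces used exact permutation tests over 720 orders, two-sided. Named genes are the 10 members, the 4 largest called genes in each direction of each list, and the 3 nearest genes by rank. The 10 genes, gene lists and cell type markers were chosen with earlier results of these data known. Alternatives were other scalings (quantile, median, detected probes, the authors' values), normexp background correction with an offset of 50, a filter on dim probes, no animal block, scan day, slide, the methods' t-test, a sign-flip permutation test over 2048 orders, other probes and leaving out pairs.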

Additional observations from a re-analysis of the deposited data

How the results depend on the processing

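The counts of the 10 genes called in OSCC, 5 higher and 0 lower, held their number with the authors' scaled values, scaling to the median or to detected probes, a filter on dim probes, slide as a random block, the methods' paired t-test, the exact sign-flip test, the 9 pairs scanned on different days, and without the pairs of animals 21, 22 and 24. Without the animal as a replicate block 5 were higher and 0 lower, so the pairing changed no count of the 10 genes. Quantile normalization called 6, with Chrm3 added (1.88, adjusted p = 0.037), and normexp 4, without Bhlha15. Leaving out 1 pair at a time gave 5 to 7 higher, the 7 without animal 25 (Chrm3 and Cftr added), and 0 lower throughout.

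With scan day as a further term 0 genes were higher and 0 lower, among the 10 and among the 72 other pathway genes. At an unadjusted p it gave 5 and 0, and 9 and 3. The counts of pathway genes, 13 higher and 4 lower, were 3 and 3 after normexp, 12 and 7 without animals 21, 22 and 24, and 10 to 13 and 3 to 5 with 1 pair left out. The cause was not tested. Both pairs scanned on 1 day gave values only, and no count. The dim filter removed Chrm3 and Cftr.

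The sign turned for Slc12a2 with its other probe (0.36) and for Cftr with its other probe (-0.33) and after normexp (-0.22). Within pairs, rho with the serous markers turned to 0.49 for Bhlha15, -0.20 for Creb3l1, -0.03 for Kcnn4 and -0.09 for Ano1, and Sox9 had Pearson's r of 0.92 (adjusted exact permutation p = 0.042) and rho of 0.94 (adjusted p = 0.17). The median of all probes was -0.24 as reported, -0.44 with the array median, -0.15 with detected probes, -0.14 with the authors' values, -0.08 after normexp and -0.03 after quantile normalization. The differences of the 5 called genes were positive under each, although Bhlha15 did not pass after normexp (1.58, adjusted p = 0.059).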
